A study of Mus musculus with 8 samples.

Results

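The genes described here are 38 genes from a list made for the endothelium, the inner lining of blood and lymph vessels. They were chosen by name: a gene is a member when the gene name column of the array files equals its symbol. They comprise 19 pan-endothelial genes, 4 of the aerocyte (alveolar gas-exchange capillary cell), 3 of the general capillary cell, 5 arterial, 3 venous and 3 lymphatic genes, and Icam4, an adhesion molecule given no vessel class. Of the 36163 gene names on the array 37 were members. Prox1 was not well above background on any of the 8 arrays and Ccl21a had no probe of that name, so 36 members were tested among 24464 genes. The samples were whole lungs of C57BL/6 mice taken 12 h after lipopolysaccharide (LPS), a bacterial outer-membrane component that injures the lung. Of these, 4 were wild-type and 4 carried a lung-specific knockout of Ggps1 (GGPPS1), which encodes geranylgeranyl diphosphate synthase, the enzyme that makes the lipid anchor of many small GTPases. One single-colour Agilent array was used per sample. The sources used here do not give the Cre driver, the deleted part of Ggps1 or the age of the mice. Mice that received no LPS were not analysed here.

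Endothelial cells share junction proteins, surface receptors and transcription factors of the ETS and SOX families, and each vessel type adds its own programme. In the alveolus, aerocytes carry out gas exchange while general capillary cells act as progenitors and regulate vessel tone, and Notch signalling through Dll4 favours arterial over venous identity. After LPS the lung endothelium is known to loosen its junctions, to release stored von Willebrand factor and to display adhesion molecules for leukocytes.

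Levels are log2 processed signal minus the 75th percentile of the array, so 0 is the brightness of the probe at that percentile, and levels of different genes cannot be set against each other because each has its own probe. Differences are knockout minus wild-type with the standard error of limma, which tests them on the spread between the 4 samples of each group, and p-values are adjusted over all 24464 genes. The arrays shared 1 slide with the genotypes in separate rows, 1 and 2, so slide row and genotype cannot be told apart. The replicate number was also the slide column, so replicate number and slide column cannot be told apart either. The share of spots well above background was 58.1% to 65.3%, or 63.6 ± 1.8% (SD) over the wild-type and 59.8 ± 1.5% over the knockout arrays (n = 4 each, exact permutation p = 0.0571, two-sided). The extraction software had put a surrogate in place of the processed signal for 17.4 ± 2.2% of probes on wild-type and 23.2 ± 1.7% on knockout arrays (SD, n = 4 each; two-sided exact permutation p = 0.0286, the smallest that 4 against 4 can give), and the part of this in the differences was not tested. The Ggps1 probe differed by -0.060 ± 0.068 (limma, adjusted p = 0.613), and since the deleted part is not known it does not check the genotype labels. All 36 tested members were well above background on all 8 arrays. The samples also differed in cardiac muscle RNA, and in mice the walls of pulmonary veins hold cardiac muscle. The mean level of 10 cardiac muscle markers was -0.30, 4.38, 1.30 and 1.31 in wild-type and 2.66, 4.73, 1.55 and 4.68 in knockout replicates 1 to 4. It was high in wild-type replicate 2 and in knockout replicates 2 and 4, and the counts, class medians and several members are also given without these 3 samples. Knockout replicates 2 and 4 were also the highest in fat markers (mean of 5, -4.72 to -0.61 in wild-type and -4.52 to 1.54 in knockout samples) and smooth muscle markers (mean of 7, 0.71 to 1.82 in wild-type and 1.06 to 2.75 in knockout samples). Club and ciliated airway marker means were higher in every knockout than in every wild-type sample, at 6.07 to 6.50 in wild-type and 6.68 to 7.20 in knockout samples for club and 0.42 to 0.80 in wild-type and 0.90 to 1.69 in knockout samples for ciliated cells. Neutrophil marker means (5.96 to 6.42 in wild-type and 5.76 to 5.92 in knockout samples) and T and NK cell marker means (0.22 to 0.42 in wild-type and -0.54 to 0.19 in knockout samples) were lower in every knockout sample. Of the 6 neutrophil markers 4 differences were negative and 2 positive (S100a9 and Csf3r), and 2 markers had separate groups (Cxcr2 and Retnlg). The part of these cell types in the members' differences was not tested.

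None of the 36 tested members passed the adjusted threshold of 0.05, which 0.0613% of all genes did. By direction, 0.0327% of all genes passed as higher and 0.0286% as lower in knockout (8 and 7 genes, or 6 and 11 with arrays centred on their medians). At an unadjusted p under 0.05, 1 member was higher (Lyve1) and 4 were lower in knockout lungs (Vwf, Sox7, Aplnr and Dll4), against a background of 10.2% of all genes higher and 13.4% lower. In the same 4 lower members every knockout value lay below every wild-type value, a separation that 9.21% of all genes showed, and 0 members were separated upward, against 6.10%. The share of members with a separate, lower knockout group, 11.1%, was thus near that of all genes. The median difference over the members was -0.096, beside -0.027 over all genes tested. Of the 36, 22 differences were negative and 14 positive, while 54.3% of all genes were negative and 45.7% positive. Under the other scalings between 19 and 24 members were negative, and the median turned to 0.0090 without wild-type replicate 1 and to 0.013 without knockout replicate 2. Removing knockout replicate 3 raised the members lower at an unadjusted p under 0.05 from 4 to 9, and those with separate groups from 4 to 7, beside 12.5% and 12.4% of all genes in that fit. With arrays centred on their medians 7 members were lower at an unadjusted p under 0.05, beside 16.9% of all genes. In whole-lung RNA, fewer cells of a type and less RNA per cell cannot be told apart.

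**Figure D1:**
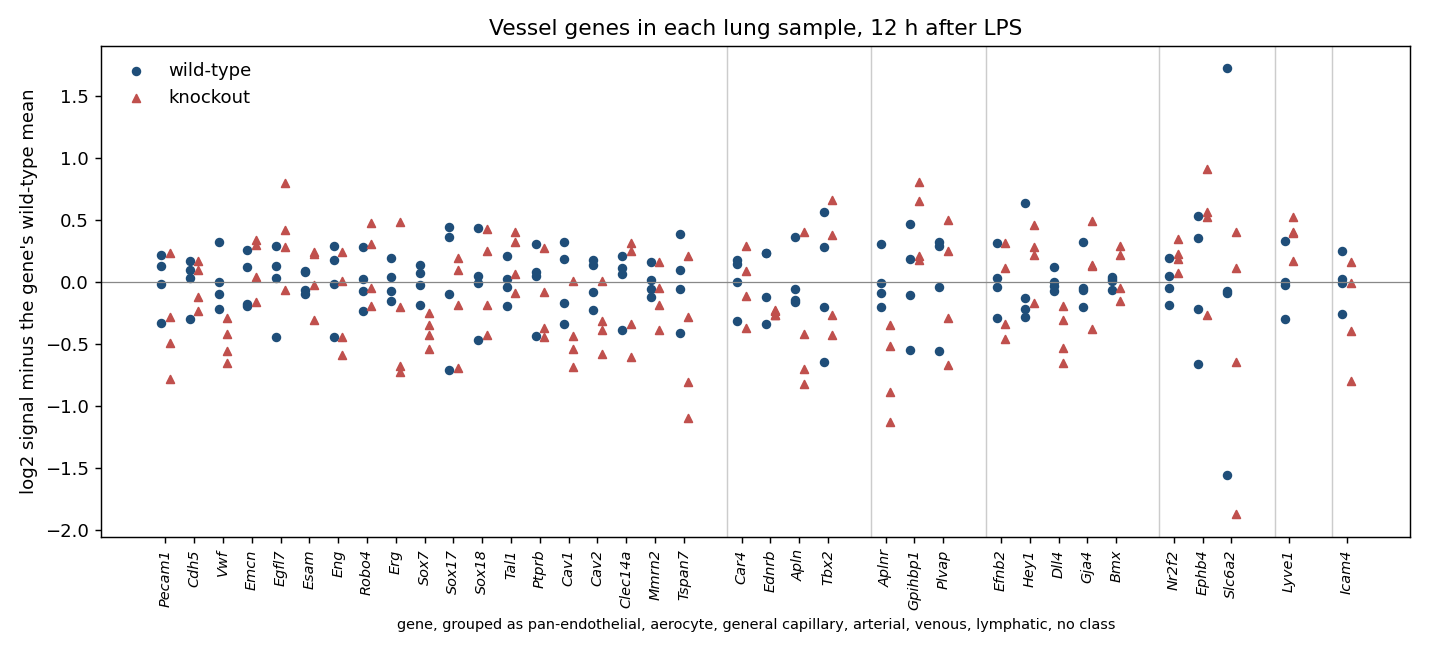
Level of each of the 36 tested genes in each sample, as log2 signal minus the gene's own wild-type mean (y axis), with genes on the x axis grouped by vessel class; circles are the 4 wild-type and triangles the 4 knockout samples. In Vwf, Sox7, Aplnr and Dll4 all triangles lie below all circles, and in every other gene the groups overlap.

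The pan-endothelial class had 13 negative and 6 positive differences with a median of -0.15, which was 0.014 without the 3 samples rich in cardiac muscle RNA and 0.14 with the cardiac muscle marker mean as a covariate. Its best known junction genes gave no single direction. Cdh5, which encodes VE-cadherin, the adhesion protein that holds endothelial cells together, read 4.73, 4.33, 4.66 and 4.80 in wild-type and 4.80, 4.40, 4.72 and 4.51 in knockout replicates 1 to 4. The groups overlapped throughout, and the difference was -0.024 ± 0.13 (SE; limma, adjusted p = 0.931) with a 95% interval -0.33 to 0.28. The interval thus ends at a difference of less than 1.5-fold on both sides. Pecam1, which encodes the junction adhesion protein CD31, differed by -0.33 ± 0.22, with knockout replicates 2 and 4 below all wild-type samples and knockout replicate 3 above them, and by -0.13 without the 3 samples rich in cardiac muscle RNA and -0.045 with the covariate. Esam, another junction adhesion gene, differed by 0.034 ± 0.13. Ptprb, whose product is the phosphatase VE-PTP bound to VE-cadherin, differed by -0.16 ± 0.20, and Cldn5 of the tight junction, which is not a member, by 0.37 ± 0.23. None of these passed the test.

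Vwf encodes von Willebrand factor, the large protein that endothelial cells store and release to tether platelets, and its probe lies at mm9 chr6:125636551-125636610 on the plus strand. It read 6.24, 5.82, 5.70 and 5.92 in wild-type and 5.26, 5.37, 5.63 and 5.50 in knockout replicates 1 to 4. All knockout values lay below all wild-type values, knockout replicate 3 being nearest to wild-type replicate 3. The difference of -0.48 ± 0.14, or 1.40-fold lower in knockout, did not pass (limma, adjusted p = 0.100). Between the 22 alternative settings the difference ranged from -0.55 to -0.37. Several of these settings left each member's difference as it was. Settings that leave out samples could not turn the sign of Vwf, since its groups were separate, and the same holds for Sox7, Aplnr and Dll4. Megakaryocytes and platelets also contain von Willebrand factor, and the differences of their markers had the same direction. Of 9 platelet and megakaryocyte markers 8 were tested, all 8 were lower in knockout and 7 had separate groups, with a mean level of 0.54 to 1.42 in wild-type and -0.062 to 0.14 in knockout samples. Gp1ba, part of the complex by which platelets bind von Willebrand factor, was 1 of the 7 genes that fell over the whole table (-1.32 ± 0.15, limma, adjusted p = 0.0456), and F2rl2 did not pass the filter on dim probes. The part of platelet RNA in the Vwf difference was not tested.

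Sox7, Sox17 and Sox18 form the SOXF group of transcription factors that act in vessel formation. Sox7 (probe at mm9 chr14:64569419-64569478 on the plus strand) read 1.69, 1.53, 1.78 and 1.85 in wild-type and 1.46, 1.28, 1.17 and 1.37 in knockout replicates 1 to 4. Each knockout value was below the lowest wild-type value, and the difference was -0.39 ± 0.10 (limma, adjusted p = 0.0842). Sox7 stayed between -0.46 and -0.34 in all 22 alternatives, at an unadjusted p under 0.05 in each. Sox17 differed by -0.15 ± 0.29 and Sox18 by 0.014 ± 0.24, both with overlapping groups and with their lowest wild-type value in replicate 2. Whether Sox7 differed from its 2 relatives was not tested.

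The 95% intervals of the other pan-endothelial transcription factors included 0. Erg, an ETS factor that maintains endothelial identity, differed by -0.28 ± 0.26 on its brighter probe and by 0.58 ± 0.71 on its dimmer probe, which was well above background on 2 of 4 knockout arrays. Tal1, a factor of blood and vessel progenitors, differed by 0.17 ± 0.14. It also acts in red cell precursors, and the 4 tested erythroid markers (Hba-a1, Hbb-b1, Alas2 and Slc4a1) had negative differences. Their mean level was 4.14 to 5.91 in wild-type and 4.22 to 4.84 in knockout samples. Their part in the Tal1 values was not tested. Among 13 further endothelial transcription factors 0 passed, 1 was higher and 2 were lower at an unadjusted p under 0.05. The 2 lower ones were Lyl1 and Lmo2. Lyl1 differed by -0.40 ± 0.10 and Lmo2 by -0.36 ± 0.12, with separate groups in both. Foxc1 differed by 0.95 ± 0.38 with overlapping groups, and Fli1 by -0.13 ± 0.11.

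Cav1 and Cav2 encode caveolins, the coat proteins of the membrane pits that fill capillary endothelium, and both genes lie on chromosome 6. They are shown with their upstream sequence because they are near each other in the genome and had the same direction in all 22 alternatives. Several of those alternatives left each member's difference as it was. These 2 genes were singled out after their values were seen. Cav1 read 0.0069, -0.49, -0.13 and -0.65 in wild-type and -0.75, -0.86, -0.31 and -1.01 in knockout replicates 1 to 4, a difference of -0.42 ± 0.19 (limma, adjusted p = 0.238). Cav2 read 2.78, 2.42, 2.82 and 2.56 in wild-type and 2.33, 2.26, 2.65 and 2.06 in knockout replicates 1 to 4 on its brightest probe, a difference of -0.32 ± 0.15 (limma, adjusted p = 0.229). In both genes 3 of 4 knockout values lay below all wild-type values, and knockout replicate 3 was the exception. With the cardiac muscle marker mean as a covariate Cav1 differed by -0.20 and Cav2 by -0.14. Without the 3 samples rich in cardiac muscle RNA Cav1 differed by -0.27 and Cav2 by -0.23. The 2 other Cav2 probes gave -0.55 ± 0.16 and -0.49 ± 0.16, with separate groups. Alveolar type 1 cells also contain caveolae, and all 8 of their markers were lower in knockout, 2 with separate groups, at a mean level of 4.16 to 4.86 in wild-type and 3.23 to 4.45 in knockout samples. Their part in the caveolin differences was not tested.

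RefSeq (GRCm38.p6) held an upstream sequence for 22 of the 38 members, and 4 motifs were searched on both strands in the 250 bases before the gene start. An ETS motif (GGAAGT) was in 22.7% of these members' windows and 19.9% of 27025 promoters, and an RBPJ motif of Notch signalling (TGGGAA) in 22.7% and 21.5%. A GATA motif (AGATAA) was in 9.09% and 10.2% and a SOX motif (AACAAT) in 4.55% and 9.62%. The letters of the ETS and RBPJ motifs can overlap. The windows of Cav1 (chr6:17306085-17306334) and Cav2 (chr6:17280935-17281184), both on the plus strand and given 5′ to 3′ with the motif in capitals, hold 1 RBPJ and 1 ETS match.
Cav1: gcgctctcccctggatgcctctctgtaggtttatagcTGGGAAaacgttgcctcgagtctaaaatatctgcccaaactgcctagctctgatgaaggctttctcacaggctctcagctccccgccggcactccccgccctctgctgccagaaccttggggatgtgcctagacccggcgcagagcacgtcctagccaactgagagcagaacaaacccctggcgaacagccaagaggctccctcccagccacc
Cav2: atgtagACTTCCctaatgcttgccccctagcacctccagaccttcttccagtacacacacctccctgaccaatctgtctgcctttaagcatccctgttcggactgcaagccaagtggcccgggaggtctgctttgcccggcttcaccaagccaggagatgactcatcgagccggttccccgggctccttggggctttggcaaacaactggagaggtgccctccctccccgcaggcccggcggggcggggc

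The remaining pan-endothelial members were surface and secreted proteins. Egfl7, a secreted vessel factor, read 7.38, 6.64, 7.12 and 7.22 in wild-type and 7.51, 7.02, 7.88 and 7.37 in knockout replicates 1 to 4. Knockout replicates 1 and 3 were above every wild-type sample and wild-type replicate 2 was below all others, and the difference was 0.36 ± 0.21 (limma, adjusted p = 0.342). Clec14a, a lectin of the endothelial surface, differed by -0.098 ± 0.23, and Mmrn2, its ligand in the vessel matrix, by -0.12 ± 0.13. Eng, a co-receptor for TGF-β family ligands, differed by -0.20 ± 0.23, while Acvrl1, the receptor it serves and not a member, differed by -0.51 ± 0.16 with overlapping groups. Robo4, which stabilises vessels, differed by 0.14 ± 0.17, Emcn, a sialomucin of capillaries and veins, by 0.13 ± 0.15 and Tspan7, a tetraspanin, by -0.49 ± 0.29. Tspan7 reached 4.59 and 4.30 in knockout replicates 2 and 4, below all other samples, and its difference was -0.17 without the 3 samples rich in cardiac muscle RNA and -0.078 with the covariate.

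Of 26 further endothelial receptor, junction and surface genes 0 passed the test, 13 differences were positive and 13 negative, and 1 was higher and 5 lower at an unadjusted p under 0.05. Calcrl, the receptor that forms the adrenomedullin receptor with Ramp2, read -0.40, -1.40, -0.46 and -1.08 in wild-type and -1.96, -2.60, -1.92 and -2.56 in knockout replicates 1 to 4. Its groups did not overlap, and the difference was -1.42 ± 0.27 (limma, adjusted p = 0.0628). Ramp2 itself differed by 0.11 ± 0.32. Nos3, the endothelial nitric oxide synthase, differed by 0.69 ± 0.20 with every knockout value above every wild-type value. Tm4sf1 differed by -0.42 ± 0.12 with separate groups, and Myct1 by -0.59 ± 0.16 with overlapping groups.

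**Figure D2:**
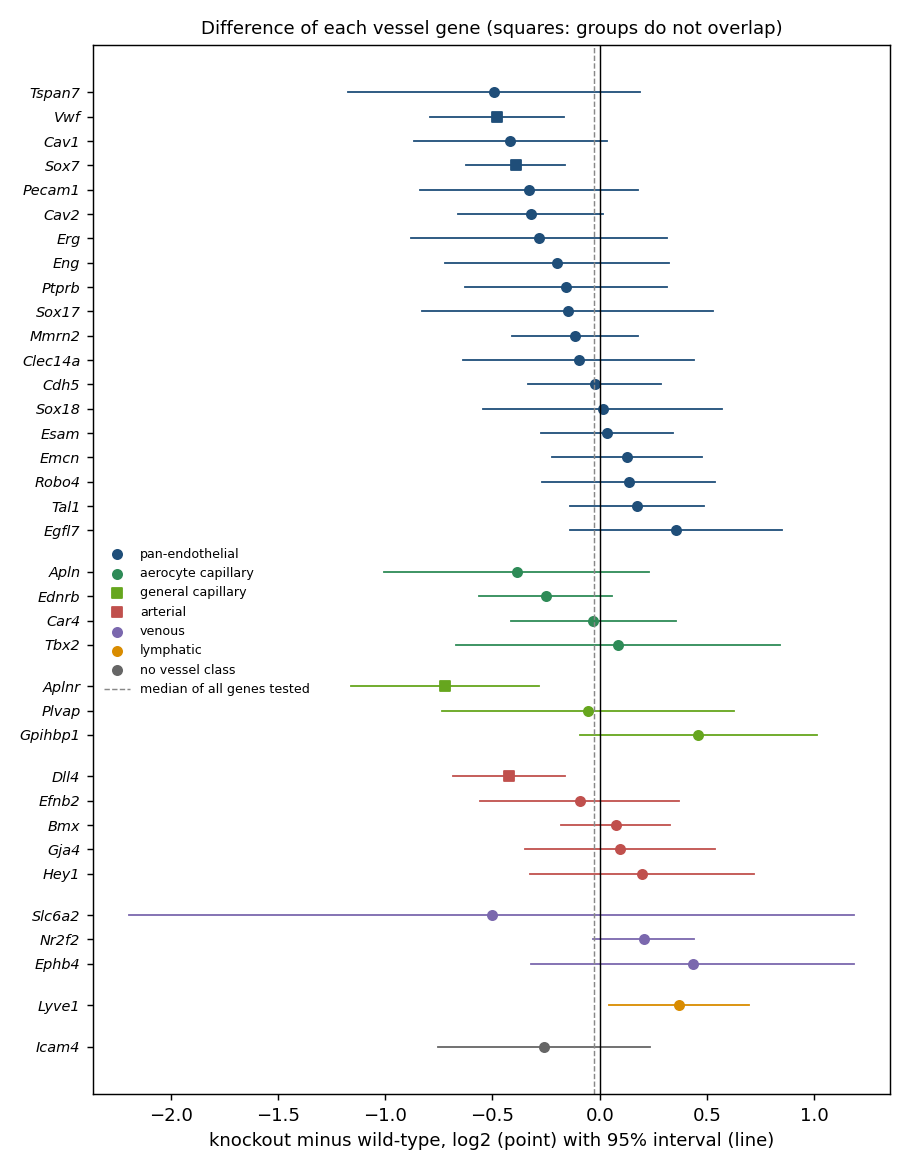
Difference of each tested gene between knockout and wild-type lungs (x axis, log2) with its 95% interval, by vessel class; squares mark genes whose groups do not overlap, and the dashed line is the median of all genes tested, -0.027. The intervals of Vwf, Sox7, Aplnr and Dll4 lie below 0, that of Lyve1 lies above 0, and the other 31 include 0.

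Among aerocyte genes 3 of 4 differences were negative and none passed. Car4 encodes a membrane carbonic anhydrase that marks aerocytes, and it read 4.17, 4.203, 4.02 and 3.71 in wild-type and 4.31, 3.91, 3.66 and 4.11 in knockout replicates 1 to 4. Groups overlapped, the difference was -0.029 ± 0.17 (95% interval -0.41 to 0.35) and the second Car4 probe gave -0.11 ± 0.20. Tbx2, a transcription factor, read 3.04, 1.83, 2.76 and 2.27 in wild-type and 2.86, 2.05, 3.14 and 2.21 in knockout replicates 1 to 4. It was lowest in replicate 2 of both groups, and its difference was 0.086 ± 0.33, or 0.30 without the 3 samples rich in cardiac muscle RNA and 0.57 with the covariate. Ednrb, the receptor that clears endothelin, differed by -0.25 ± 0.13 on its brighter probe and by 0.026 ± 0.21 on the other.

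Apelin and its receptor are a ligand and receptor pair that lie in different capillary cells, Apln in aerocytes and Aplnr in general capillary cells. Apln read 2.09, 2.10, 2.19 and 2.61 in wild-type and 1.83, 2.65, 1.55 and 1.42 in knockout replicates 1 to 4. In 3 of 4 knockout samples it was below the lowest wild-type value, but knockout replicate 2 was the highest of all 8, and the difference was -0.39 ± 0.27 (limma, adjusted p = 0.403). Aplnr (probe at mm9 chr2:84979638-84979697 on the plus strand) read -3.13, -3.20, -2.80 and -3.32 in wild-type and -4.24, -3.46, -3.63 and -4.00 in knockout replicates 1 to 4. Here the groups were apart, and the difference of -0.72 ± 0.19, 1.65-fold lower in knockout, was the largest negative one among the members (limma, adjusted p = 0.0907). Its signal was low, and with normexp background correction the difference shrank to -0.25.

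In the other 2 general capillary genes the groups overlapped. Gpihbp1, which anchors lipoprotein lipase to the capillary wall, read 5.26, 4.24, 4.69 and 4.98 in wild-type and 5.45, 5.003, 5.60 and 4.97 in knockout replicates 1 to 4. Knockout replicates 1 and 3 were above all wild-type samples, and the difference was 0.46 ± 0.24 (limma, adjusted p = 0.281), the largest positive one among the members. Lpl, the lipase it binds, differed by -0.29 ± 0.30. Plvap, which forms the diaphragms of fenestrae and caveolae, read 5.55, 4.66, 5.51 and 5.18 in wild-type and 5.48, 4.93, 5.72 and 4.55 in knockout replicates 1 to 4. Knockout replicate 4 was the lowest and knockout replicate 3 the highest of all samples, with a difference of -0.055 ± 0.30 (limma, adjusted p = 0.929), which turned to 0.19 without the 3 samples rich in cardiac muscle RNA and to 0.37 with the covariate. Of 9 other capillary genes 0 passed, 0 were higher and 1 was lower at an unadjusted p under 0.05. That gene was Sema3c, a semaphorin ligand, at -0.53 ± 0.19 with separate groups. Kit, a receptor of general capillary cells, differed by -0.33 ± 0.17, Prx by 0.46 ± 0.26 and Glp1r by -0.22 ± 0.18.

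Dll4, the Notch ligand of arterial and tip endothelial cells, was the arterial gene with separate groups. It read -1.02, -0.99, -0.87 and -1.06 in wild-type and -1.51, -1.29, -1.18 and -1.64 in knockout replicates 1 to 4 (probe at mm9 chr2:119160779-119160838 on the plus strand). The wild-type samples lay close together, all knockout values were lower, and the difference was -0.42 ± 0.11, 1.34-fold lower in knockout (limma, adjusted p = 0.0927). Across the 22 alternatives it ranged from -0.50 to -0.32. Its RefSeq upstream window (chr2:119325534-119325783 of GRCm38.p6, plus strand, 5′ to 3′) held none of the 4 motifs and is given as the regulatory sequence next to the start of the one Notch ligand among the members.
Dll4: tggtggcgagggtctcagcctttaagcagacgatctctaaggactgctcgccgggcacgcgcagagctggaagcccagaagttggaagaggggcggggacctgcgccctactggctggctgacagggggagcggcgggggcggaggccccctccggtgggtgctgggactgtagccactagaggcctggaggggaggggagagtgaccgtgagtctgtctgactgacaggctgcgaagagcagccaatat

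Hey1, a target gene of Notch, differed by 0.20 ± 0.23, with a wild-type value of 2.15 in replicate 1 and of 1.23 to 1.39 in the rest of the group. Efnb2, the arterial ephrin ligand, read 2.82, 2.22, 2.54 and 2.47 in wild-type and 2.63, 2.05, 2.82 and 2.17 in knockout replicates 1 to 4. Gja4, the gap junction protein connexin 37, read 2.34, 1.81, 1.97 and 1.94 in wild-type and 2.15, 1.64, 2.14 and 2.50 in knockout replicates 1 to 4. In both genes the groups overlapped, with differences of -0.094 ± 0.20 and 0.093 ± 0.19. Bmx, a kinase of arterial endothelium, differed by 0.074 ± 0.11. Among 12 other Notch and arterial genes 11 were tested (Hey2 did not pass the filter on dim probes) and 0 passed, with 1 higher and 1 lower at an unadjusted p under 0.05. Cxcl12, an arterial chemokine, differed by -0.41 ± 0.13 and Unc5b, a netrin receptor, by 0.28 ± 0.12. The receptors Nrp1 and Notch1 differed by -0.59 ± 0.27 and 1.01 ± 0.46. Groups overlapped in all 4.

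Venous members had positive differences in 2 of 3 cases. Nr2f2, the transcription factor COUP-TFII that sets venous identity, read 1.83, 1.45, 1.68 and 1.58 in wild-type and 1.81, 1.71, 1.97 and 1.86 in knockout replicates 1 to 4. Knockout replicates 3 and 4 lay above all wild-type samples, and the difference was 0.20 ± 0.10 (limma, adjusted p = 0.264). Ephb4, the venous receptor for ephrin-B2, read 2.06, 1.05, 1.49 and 2.24 in wild-type and 2.62, 1.44, 2.27 and 2.24 in knockout replicates 1 to 4. Both groups were low in replicate 2, and the difference was 0.43 ± 0.33 (limma, adjusted p = 0.439), with a second probe at 0.18 ± 0.24. Slc6a2, the noradrenaline transporter of lung veins, ran from -2.60 to 0.68 in wild-type and from -2.92 to -0.64 in knockout samples, the widest spread of any member (SD 1.34 and 1.02, n = 4 per group). Its difference of -0.50 ± 0.73 was smaller than that spread, and it turned to 0.071 without wild-type replicate 1 and to 0.43 with the cardiac muscle covariate. Without wild-type replicate 2 the difference was -1.02, and without the 3 samples rich in cardiac muscle RNA it was -0.64. Sympathetic nerves use the same transporter, and 5 tested sympathetic neuron and glia markers had a mean level of -1.63 to -1.39 in wild-type and -2.37 to -1.15 in knockout samples. Their part in the Slc6a2 values was not tested.

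Among further venous genes and genes of inflamed veins 7 of 7 tested differences were negative, 2 of them at an unadjusted p under 0.05, with a median of -0.23, and 0 passed the adjusted threshold. Sele, encoding the leukocyte rolling receptor E-selectin, differed by -1.14 ± 0.34 and Selp, encoding P-selectin, by -0.78 ± 0.30. Vcam1 differed by -0.30 ± 0.16 and Nrp2 by -0.11 ± 0.077. The groups of all 4 overlapped, as did those of the other tested genes of this list. The mean level of the list was 2.13 to 2.37 in wild-type and 1.64 to 2.01 in knockout samples. The means of the other lists of vessel genes overlapped between the groups. Selp is also a platelet gene, and the platelet markers are given above.

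Of the lymphatic members, Lyve1 was the one that could be tested. Lyve1 encodes a hyaluronan receptor of lymphatic vessels (probe at mm9 chr7:117994171-117994230 on the minus strand), and it read 4.75, 5.02, 5.04 and 5.37 in wild-type and 5.44, 5.21, 5.56 and 5.45 in knockout replicates 1 to 4. In knockout, 3 of 4 values lay above all wild-type values and replicate 2 lay within their range. The difference was 0.37 ± 0.14, 1.29-fold higher in knockout (limma, unadjusted p = 0.0302, adjusted p = 0.170), and it was past an unadjusted p of 0.05 in 12 of 22 alternatives. Prox1, the transcription factor that defines lymphatic cells, had only signals not well above background. A population of tissue macrophages also carries Lyve1. Of 8 tested monocyte and macrophage markers 7 were lower in knockout, 4 with separate groups, and Mrc1 differed by 0.026 ± 0.26. The mean level of these markers was 2.54 to 2.99 in wild-type and 1.98 to 2.40 in knockout samples. Of that list of 10, Ly6c2 had no probe of that name and Adgre1 was present under its older name Emr1. Their part in the Lyve1 difference was not tested. Among 10 other lymphatic genes 7 were tested, 4 differences were positive and 3 negative, and 0 had an unadjusted p under 0.05. Mmrn1 differed by -0.25 ± 0.12, Pdpn, also an alveolar type 1 gene, by -0.41 ± 0.22, Ccbp2, a chemokine-scavenging receptor, by 0.26 ± 0.18 and Itga9 by -0.14 ± 0.19. The lymphatic label thus rests on 1 measured member here.

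Icam4, the member with no vessel class, read -1.57, -1.86, -1.35 and -1.60 in wild-type and -1.60, -1.99, -1.43 and -2.39 in knockout replicates 1 to 4. The groups overlapped, and the difference was -0.26 ± 0.21 (limma, adjusted p = 0.480). Over all members, 30 of 36 had a 95% interval that stayed within 2-fold in both directions, as 82.9% of all genes did. Within 1.5-fold the count was 13 of 36, or 36.1%, beside 58.0% of all genes, and the median SD within a group was 0.31 for the members and 0.19 for all genes.

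That wider spread was shared between members. In wild-type lungs replicate 2 was the lowest sample for 25 of 36 members and replicate 1 the highest for 19. In knockout lungs replicate 2 was the lowest for 18 and replicate 4 for 12, while replicate 3 was the highest for 26. Over all genes tested the same samples were the lowest in 31.3%, 25.4% and 27.7% of cases, and the highest in 34.7% and 30.3%. The pan-endothelial mean was 3.14, 2.69, 3.04 and 2.99 in wild-type and 2.94, 2.58, 3.17 and 2.62 in knockout replicates 1 to 4. The 3 samples with the lowest values are those with the highest cardiac muscle markers.

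**Figure D3:**
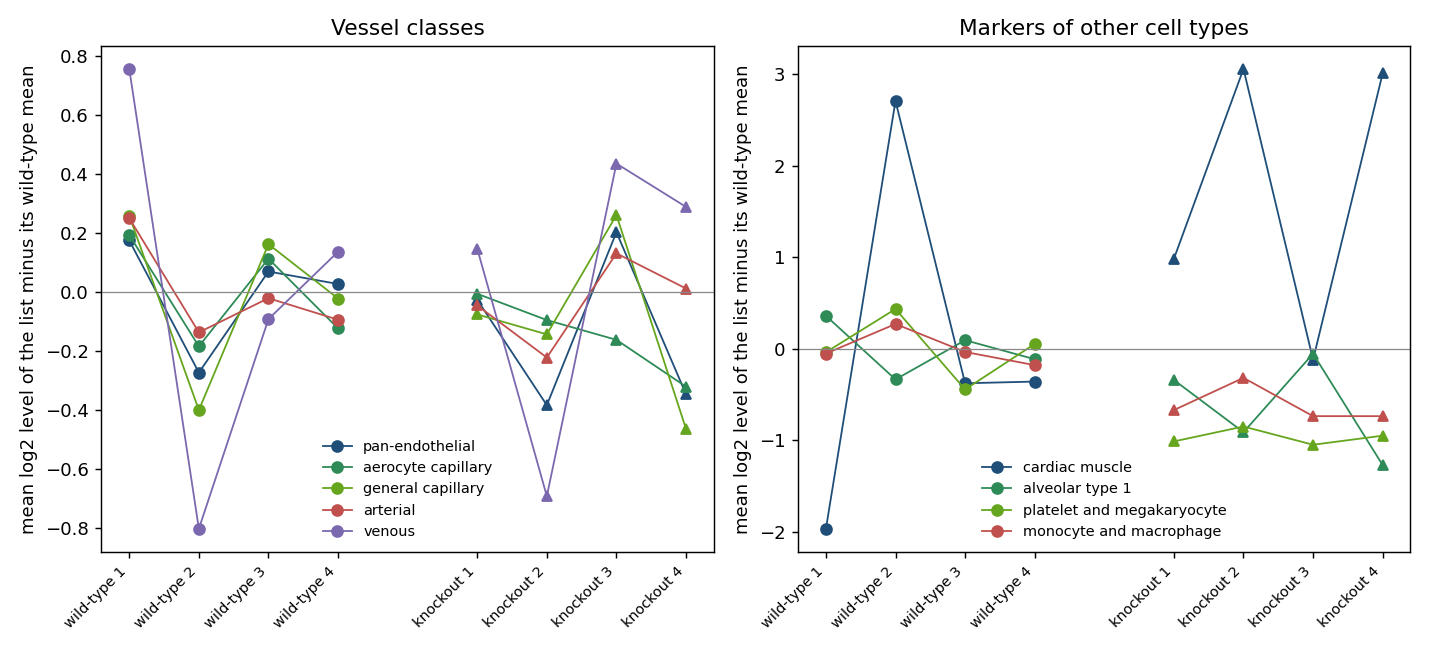
Mean log2 level of each vessel class (left) and of markers of other cell types (right) in each sample, minus the list's wild-type mean; circles are wild-type and triangles knockout samples, and lines only join the points of a list. The pan-endothelial and venous means are low where the cardiac muscle mean is high in wild-type replicate 2 and knockout replicate 2. In knockout replicate 4, where it is also high, the pan-endothelial mean is low but the venous mean is not (1.06 before the wild-type mean is taken off). The general capillary mean is the lowest of its group in wild-type replicate 2 and knockout replicate 4. The platelet and macrophage means are lower in all 4 knockout samples.

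The members were also fitted with the cardiac muscle marker mean as a covariate, a setting added after the values were seen. This mean was high in the samples with low pan-endothelial values, and all 10 cardiac muscle markers had positive differences. The fit therefore raises the difference of a member that falls as this mean rises. Its adjusted p-values do not allow for the choice of covariate. The median difference of the members then turned from -0.096 to 0.15, with 23 positive and 13 negative differences (49.1% of all genes were positive). In that fit 2 members passed as higher in knockout, Gpihbp1 at 0.82 (limma, adjusted p = 0.0309) and Egfl7 at 0.66 (limma, adjusted p = 0.0338), and 0 as lower. Over the 22 alternatives the adjusted p ranged from 0.0309 to 0.497 for Gpihbp1 and from 0.0338 to 0.596 for Egfl7. The fit called 2.75% of all genes as higher and 4.02% as lower. At an unadjusted p under 0.05 it gave 7 members higher (19.4% of 36, against 13.5% of all genes) and 4 lower (11.1%, against 15.5%). The 4 lower ones were again Vwf (-0.38), Sox7 (-0.36), Aplnr (-0.72) and Dll4 (-0.38). With the 3 samples left out instead, wild-type replicates 1, 3 and 4 and knockout replicates 1 and 3 remained. Their cardiac muscle marker means were -0.30, 1.30 and 1.31 in wild-type and 2.66 and 1.55 in knockout. Every knockout sample was thus still above every wild-type sample in cardiac muscle markers. In this fit 0 of 24464 genes passed limma's adjusted threshold. The median of the members was then 0.025, with 20 positive differences of 36 against 47.3% positive among all genes. At an unadjusted p under 0.05, 2 members were higher (7.10% of all genes) and 3 lower (9.71%), and the groups were separate for 8 higher (17.3%) and 5 lower members (21.3%). Egfl7 was then at 0.46 and Gpihbp1 at 0.55, and Vwf, Sox7, Aplnr and Dll4 at -0.51, -0.46, -0.85 and -0.36. By class, the medians with the covariate and without the 3 samples were 0.37 and 0.19 for general capillary, 0.19 and 0.063 for arterial, 0.43 and 0.20 for venous, and -0.14 and -0.14 for aerocyte members, beside -0.055, 0.074, 0.20 and -0.14 over all 8 samples. The negative sign of the median over all members therefore did not hold in either fit. These 4 genes kept theirs, but their groups were separate, so leaving out samples could not turn their sign.

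**Figure D4:**
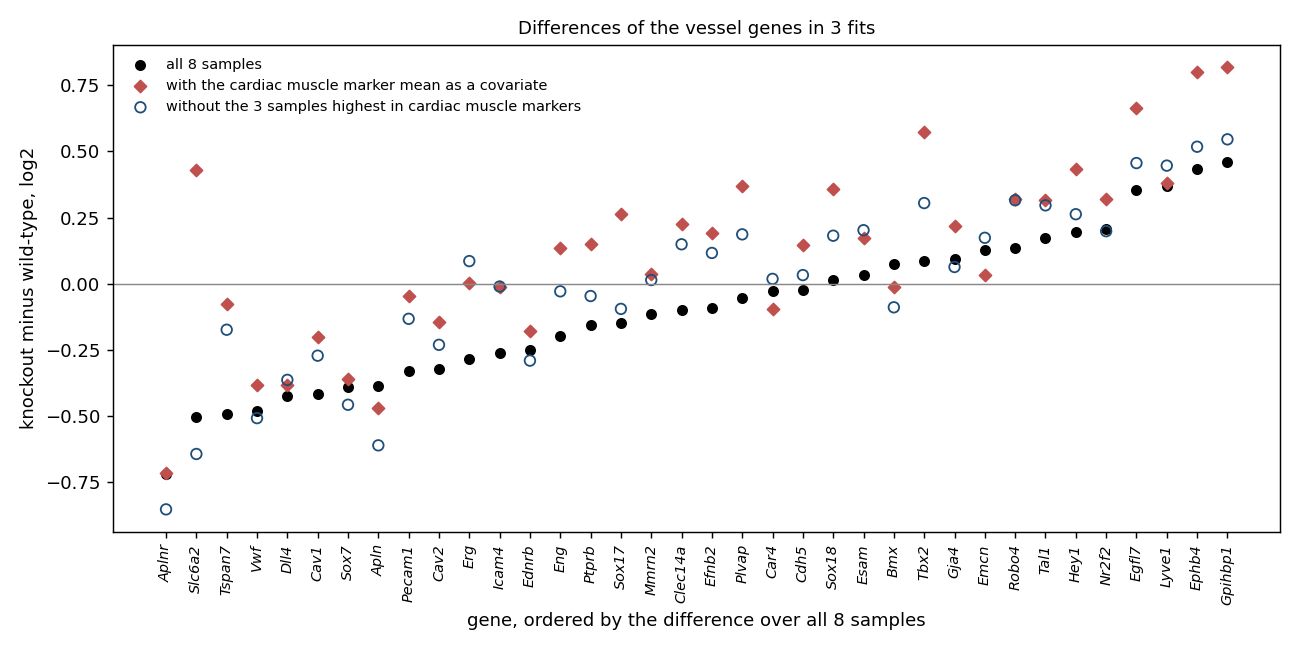
Difference of each tested gene between knockout and wild-type lungs (y axis, log2) over all 8 samples (filled circles), with the cardiac muscle marker mean as a covariate (diamonds) and without wild-type replicate 2 and knockout replicates 2 and 4 (open circles). Aplnr, Vwf, Sox7 and Dll4 stay below 0 in all 3 fits, and Gpihbp1 and Egfl7 above it. Aplnr, Vwf, Sox7 and Dll4 have separate groups, so leaving out samples cannot turn their sign.

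For 11 members the array had more than 1 probe, and for 9 of them more than 1 passed the filter. The sign was shared by all tested probes of 7 of these genes, Car4, Cav2, Clec14a, Ephb4, Plvap, Ptprb and Sox17, and differed in Ednrb and Erg. Of these 9 genes, Cav2 was the one with separate groups on any probe, and it had them on its 2 dimmer probes.

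**Figure D5:**
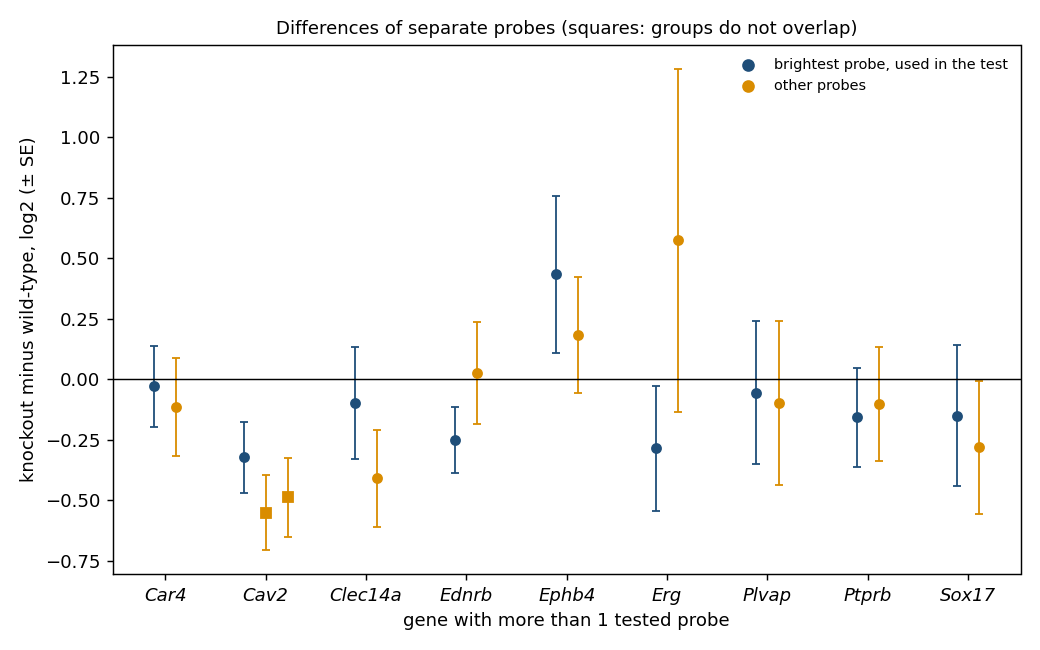
Difference between knockout and wild-type lungs (y axis, log2, with SE) for each tested probe of the 9 genes with more than 1, the brightest in blue and the others in orange; squares mark probes whose groups do not overlap. All 3 Cav2 probes lie below 0, and the 2 Erg probes lie on opposite sides of it.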

How the data were processed

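Whole-lung RNA of 8 mice, 4 per group as the series' design text counts them, was compared between genotypes. Per the labels' protocols the cRNA carried Cy3, and signals were extracted with Agilent Feature Extraction 10.7.1.1, per the submitters' processing notes. The deposited scanner files give intensity values per spot, already background-subtracted and detrended by the authors' software, with probe coordinates on mm9, and the authors' deposited table holds log2 values, which correlated with the scanner signals at r above 0.999 on each array and all had a median of 5.63. The sources used here do not name its normalization.

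Control and outlier spots were left out, spots of a probe averaged and log2 signals set relative to each array's 75th percentile. No probe was saturated. Probes well above background on 3 or more of 4 arrays of a group were kept, and of several probes of a gene the brightest was used. The test was a two-sided limma fit (lmFit, eBayes; limma 3.58.1, R 4.3.3) with Benjamini-Hochberg adjustment over 24464 genes and a threshold of 0.05, checked on simulated data with 200 changed genes. Precision is limited by the 4 samples per group.

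The members and gene lists were chosen with earlier results of these data known. Named are members with separate groups or an unadjusted p under 0.05, the brightest 2 of each vessel class and up to 4 genes per further list, those with the smallest unadjusted p. Cdh5, Pecam1, Apln, Cav1, Cav2, Slc6a2, Hey1, Cldn5, Ramp2, Lpl, Gp1ba and other genes given beside a member they bind or work with were singled out after their values were seen. Same-numbered samples did not all deviate together (r = 0.13, 0.47, 0.012 and -0.29), so the numbers were not taken as pairs. The r of 0.47, between the samples numbered 2, was the highest between any wild-type and any knockout sample. Figures were drawn with matplotlib 3.10.9.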

Additional observations from a re-analysis of the deposited data

Results flagged for a closer look

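Hey1, the Notch target gene among the arterial members, read 2.15 in wild-type replicate 1, while the other 3 wild-type samples lay between 1.23 and 1.39. The gap to the nearest of them was 0.831 of the whole range of the group, above the limit used for groups of 4. This was the only such sample in the 72 groups examined (36 genes in 2 groups), and chance alone marks about 1 group in 20. Without wild-type replicate 1 the Hey1 difference was 0.41, beside 0.20 over all samples. The cause was not tested.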

How the results depend on the processing

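Across 20 other settings and 2 added after seeing the data, the members called at an adjusted p under 0.05 stayed at 0 in both directions, except that the cardiac muscle covariate gave 2 higher. That covariate gave 7 members higher at an unadjusted p under 0.05, medians of 0.15 over the members and -0.0067 over all genes, and 672 genes higher and 983 lower over the whole table. Without the 3 samples rich in cardiac muscle RNA, 0 genes were higher and 0 lower by limma, 2 members were higher at an unadjusted p under 0.05 and 8 had separate, higher knockout groups. Over the whole table the genes higher and lower were 229 and 283 with normexp correction, 2732 and 785 with no filter on dim probes, 59 and 67 with a filter on all 8 arrays, 160 and 257 with an intensity trend, and 142 and 160 with array weights. They were 3 and 3 when arrays were centred on endothelial reference genes. Median centring and single probes gave 11 genes lower each, and the mean of a gene's probes gave 4 higher. The median over all genes was 0.011 with normexp correction, 0.012 with no filter, -0.083 with median centring and -0.061 with centring on endothelial genes. Members higher at an unadjusted p under 0.05 numbered 0 with either of these 2 centrings and 2 with no filter, which also gave 1 member with a separate, higher group and a lymphatic median of 0.60. Median centring gave 7 members lower at an unadjusted p under 0.05, beside 16.9% of all genes. Centring on endothelial genes left 2 members with separate, lower groups. The median of those 11 endothelial genes, all members, was Esam's own value in all 8 samples, so the differences of that setting are relative to Esam and its counts say nothing about the members as a group. The fit with the replicate number as a block gave 34 genes lower, 12 higher, and 3 members higher at an unadjusted p under 0.05. The replicate number is also the slide column. It was not taken to pair the samples, and not every sample correlated best with its own number. This fit only shows how the block moves the counts. Shares of all genes beside the member counts are not given for this fit or for the fit with no filter. These member counts are therefore not read against a background.

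Leaving out each sample in turn, genes higher ranged from 1 to 11 and lower from 0 to 12. Members at an unadjusted p under 0.05 ranged from 0 to 3 higher and from 4 to 9 lower. Members with separate groups ranged from 0 to 1 higher and from 4 to 7 lower. Of these fits, shares of all genes are given only for the one without knockout replicate 3. The other member counts are therefore not read against a background. The median over the members ranged from -0.23 to 0.013, positive without wild-type replicate 1 or knockout replicate 2. By class it ranged from -0.30 to -0.026 for pan-endothelial, from -0.21 to -0.078 for aerocyte, from -0.24 to 0.15 for general capillary, from -0.012 to 0.081 for arterial, from 0.14 to 0.27 for venous, from 0.27 to 0.48 for lymphatic members. The median over all genes ranged from -0.033 to -0.018. Of 36 members 20 kept their sign in all 22 alternatives, 11 negative and 9 positive. The intensity trend, the replicate block, no filter on dim probes, the filter on all 8 arrays and the brightest of single probes left each member's difference as it was. These settings could not turn a sign. Quantile normalization and the deposited table gave differences close to each other, such as -0.448 for Cav1 in both. Leaving out samples cannot turn the sign of a gene with separate groups. Across the 5 other scalings and the one used here between 19 and 24 members were negative. Erg turned to 0.15 with the mean of its probes, to 0.085 without the 3 samples rich in cardiac muscle RNA and to 0.0019 with that covariate. With 1 slide, no slide block could be fitted. The cause of these shifts was not tested.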
